A study of Mus musculus with 24 samples.

Results

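The comparison set the fibroblast fraction of mouse lung organoids that had received cigarette smoke extract and then a pair of drugs against the same fraction of organoids that had received neither. It used 6 of the 24 libraries of the series, chosen by their labels. The treated group, FibCSETF, and the vehicle group, FibVeh, had 3 libraries each, 1 per mouse. All organoids, wild type by their label, were grown from lung epithelial cells of naive mice mixed with CCL206, a line of mouse lung fibroblasts, in a basement membrane gel. FibCSETF cultures had 5% smoke extract for 14 days. After dissociation, their epithelial cells were plated again with fresh CCL206 cells and given 100 nM Tanimilast and 100 nM Formoterol until day 28. FibVeh cultures went through both windows with vehicle. Libraries came from cells without the surface protein Epcam. Per the labels' protocols, the fibroblasts of the second window were newly added after the smoke extract, so the extract itself had reached the epithelial cells and the first set of fibroblasts. All fibroblasts were of a single line. The mouse number was taken to name the donor animal of the epithelium. The question was how far the treated cultures stayed from cultures never exposed.

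Formoterol, a bronchodilator, drives the synthesis of cyclic AMP, and Tanimilast inhibits phosphodiesterase 4, which breaks cyclic AMP down. Cyclic AMP activates protein kinase A, which phosphorylates the factor CREB, and CREB binds the cyclic AMP response element (CRE) in promoters of genes such as Fos and the Nr4a nuclear receptors. Lung fibroblasts make the collagens, elastic fibre proteins and growth factors that epithelial progenitors need, and cigarette smoke carries ligands of the aryl hydrocarbon receptor and electrophiles that switch on detoxifying enzymes.

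The 6 libraries held 31832267 to 47029501 deposited counts each. Levels are given in CPM, the counts of a gene scaled by library size, and 1 CPM stood for at least 31.8 counts. The fraction held fibroblast RNA and also much epithelial RNA. The 14 genes of a fibroblast identity list summed to 2058 to 2382 CPM in FibVeh and to 1467 to 2122 CPM in FibCSETF. Thy1, Tcf21, Meox2 and Tbx4 of that list were too low to be tested. Epcam itself stood at 387, 315 and 578 CPM in the FibVeh libraries of mice 1, 2 and 3 and at 400, 475 and 631 CPM in FibCSETF. A list of 17 epithelial identity genes summed to 4222, 3698 and 5300 CPM in FibVeh and to 4681, 6320 and 7296 CPM in FibCSETF, higher in FibCSETF in each mouse. Of 8 mesothelial markers, Upk3b, Lrrn4 and Nkain4 were below 1 CPM in all 6 libraries, while the list summed to 2256, 1813 and 2365 CPM in FibVeh and to 2327, 2956 and 3111 CPM in FibCSETF, higher in FibCSETF in each mouse. Msln, mesothelin, and the keratin Krt19, which the epithelial list also holds, made up most of that sum. Of 7 tested members 0 passed in a fit without a term for mouse (edgeR) and Upk1b passed with one, the median was 0.05, and the part of mesothelial RNA in the results was not tested. Of 12 endothelial markers 7 were below 1 CPM in all 6 libraries, Cdh5 and Kdr among them, and the list summed to 11.1 to 12.9 CPM in FibVeh and 8.58 to 13.1 CPM in FibCSETF. Of 16 leukocyte markers 12 were below 1 CPM, Ptprc and Cd3e among them, and the list summed to 32.4 to 41.7 CPM in FibVeh and 41.6 to 58.1 CPM in FibCSETF. The smoke extract libraries of mouse 1 stood apart from the rest. Acta2, smooth muscle actin, reached 108 CPM in the FibCSETF library of mouse 1 and 308 CPM in its library with smoke extract alone, against 5.46 to 18.7 CPM in the other 5 libraries of the comparison.

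The treated libraries stood further from vehicle than the vehicle libraries stood from each other. The distance between a pair of libraries was the median absolute log2 difference in CPM over the 18287 genes tested. Between FibVeh libraries of different mice it was 0.164, 0.164 and 0.171. Between FibCSETF and FibVeh of the same mouse it was 0.223, 0.261 and 0.272 in mice 1, 2 and 3, all larger. For reference, the same-mouse distance to vehicle averaged 0.178 (0.137 to 0.230) with the drugs alone (FibTF) and 0.236 (0.197 to 0.282) with smoke extract alone (FibCSE). These 3 sets of distances share the FibVeh libraries and are given as a description, with no test. The distance of FibCSETF was larger than that of FibTF in each mouse (0.137, 0.230 and 0.167 for FibTF), and larger than that of FibCSE in mice 2 and 3 (0.197 and 0.230) but not in mouse 1 (0.282). FibCSETF libraries also differed among themselves, by 0.165 between mice 2 and 3 and by 0.243 and 0.260 between mouse 1 and the others.

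**Figure D1:**
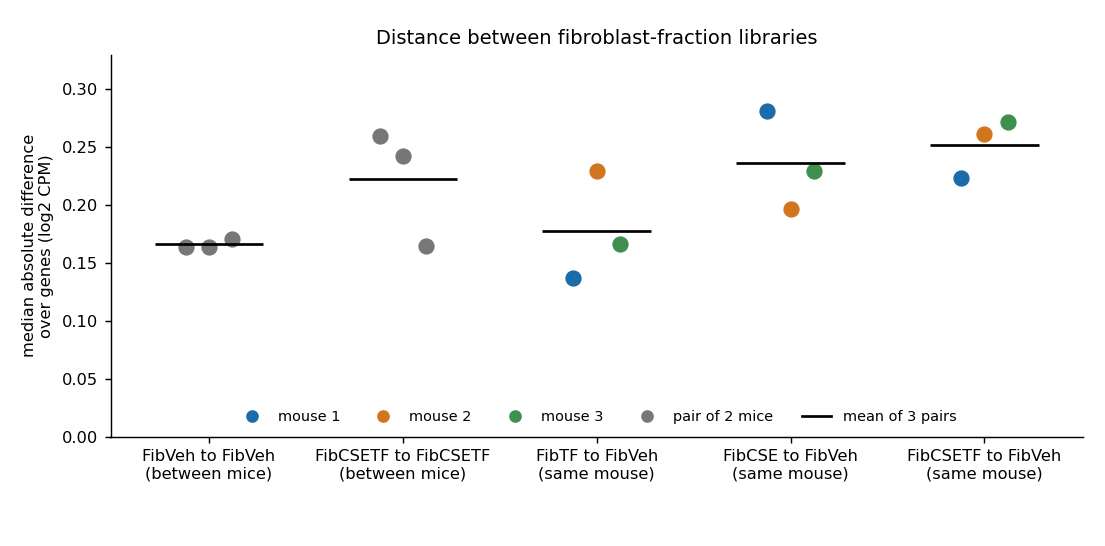
Median absolute difference in log2 CPM over 18287 genes between pairs of fibroblast-fraction libraries. Points are pairs of libraries, coloured by mouse where both come from the same mouse and grey where they come from 2 mice, and bars are means of 3 pairs. The 3 FibCSETF to FibVeh pairs lie between 0.223 and 0.272, above the FibVeh to FibVeh pairs at 0.164 to 0.171.

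Of the 18287 genes tested, 269 (1.47%) differed between FibCSETF and FibVeh at an adjusted p under 0.05 in edgeR's quasi-likelihood test over the 12 fibroblast-fraction libraries. Of these, 113 (0.618%) were higher in FibCSETF and 156 (0.853%) were lower. The median change of the called genes was 0.64 in absolute log2 units, and 68 changed by more than 1 log2 unit, 47 of them upward. The median log2 fold change of all genes was 0.01. In each of the 269 genes the groups did not overlap, which also held for 27.8% of all genes tested. With mouse as a replicate block, 1446 genes (7.91%) were called, 903 higher (4.94%) and 543 lower (2.97%), and they included all 269 with the same sign.

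The count of called genes changed widely when single libraries were left out. Such fits also have fewer replicates, and the cause was not tested. Without the FibCSETF library of mouse 1, 2 or 3 it was 783, 5 and 4, and without the FibVeh library of mouse 1, 2 or 3 it was 0, 3 and 3. Without both smoke extract libraries of mouse 1, an alternative chosen after seeing the data, it was 2780, with 1390 in each direction. All 269 genes kept their direction in each of these fits. Their groups did not overlap, so a left-out library could hardly have turned a direction. With the mean log2 level of the epithelial identity list as a covariate, 0 genes were called by edgeR (2146 at an unadjusted p under 0.05), and the 269 again kept their direction. That list summed higher in FibCSETF in each mouse, so this fit cannot separate the share of epithelial RNA from the treatment.

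**Figure D2:**
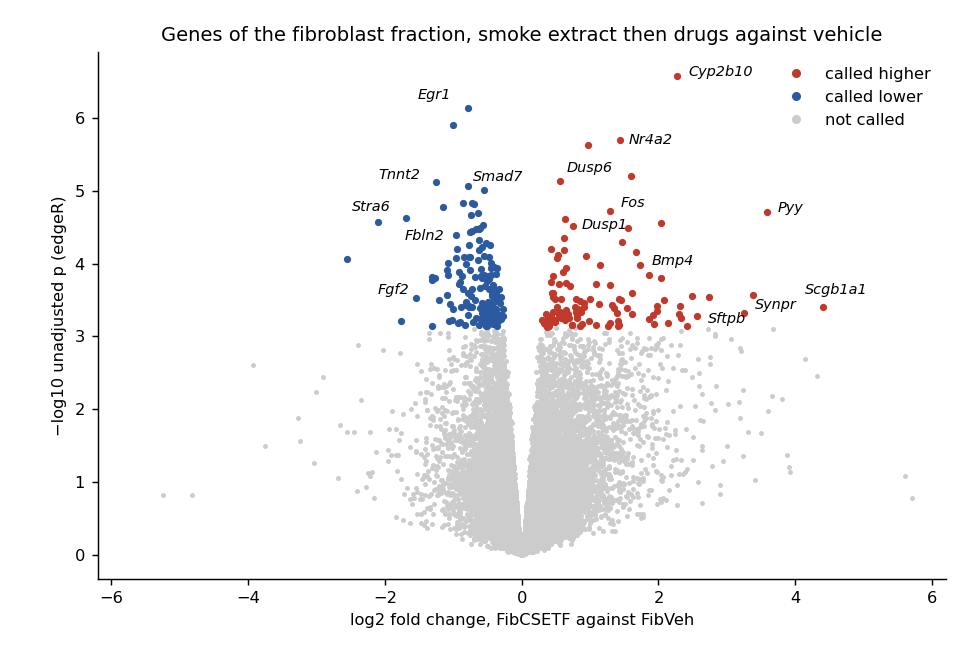
Log2 fold change of FibCSETF against FibVeh (x axis) and −log10 of the unadjusted p from edgeR (y axis) for each gene tested in the fibroblast fraction. Red points are the 113 genes called higher, blue points the 156 called lower, and grey points were not called; Cyp2b10 and Egr1 had the smallest p of the named genes that rose and fell.

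Genes of the cyclic AMP and CREB list included 4 that rose and 1 that fell of 21 tested, with a median log2 fold change of 0.29. The risers were Nr4a2, Nr4a1, Fos and Dusp1, and the faller was Egr1. Nr4a2, an orphan nuclear receptor that CREB switches on, stood at 4.22, 3.81 and 3.94 CPM in FibVeh and at 10.5, 9.48 and 12.3 CPM in FibCSETF (mice 1, 2 and 3). Every treated library was above every vehicle library. The log2 fold change was 1.43 ± 0.16 (SE; edgeR adjusted p = 0.00853). Its relative Nr4a1 stood at 41.7, 42.7 and 30.1 CPM in FibVeh and at 80.1, 79.2 and 85.3 CPM in FibCSETF, with no overlap (1.09 ± 0.20, edgeR adjusted p = 0.0383).

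Fos, a subunit of the AP-1 transcription factor, rose from 95.2, 90.9 and 76.9 CPM to 192, 232 and 221 CPM (1.29 ± 0.18, edgeR adjusted p = 0.0214). Dusp1, a phosphatase that switches off MAP kinases, rose from 190, 151 and 184 CPM to 296, 265 and 323 CPM (0.75 ± 0.11, edgeR adjusted p = 0.0222). The lowest treated library lay above the highest vehicle library for both genes. Egr1, a zinc finger factor induced by growth factor signalling, moved the other way. It stood at 506, 507 and 450 CPM in FibVeh and at 300, 264 and 285 CPM in FibCSETF, so all treated libraries were below all vehicle libraries (-0.78 ± 0.08, edgeR adjusted p = 0.00669).

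The promoters of the 4 risers are shown because they hold short matches to the CRE. These genes come from a list of known cyclic AMP and CREB targets, so matches in them were likely beforehand and are no test. The promoters of Egr1 and of the uncalled members of the list are not shown. Each runs from 250 bases before to 50 bases after a transcription start in RefSeq (assembly GRCm38.p6), read along the gene's strand. Capitals mark the short site TGACG or its reverse complement, searched on both strands, and the full site TGACGTCA, which contains overlapping short sites on both strands. The windows are Nr4a2 at chr2:57123954-57124253 on the minus strand, Nr4a1 at chr15:101266596-101266895 on the plus strand, Fos at chr12:85473640-85473939 on the plus strand and Dusp1 at chr17:26508423-26508722 on the minus strand.
Nr4a2: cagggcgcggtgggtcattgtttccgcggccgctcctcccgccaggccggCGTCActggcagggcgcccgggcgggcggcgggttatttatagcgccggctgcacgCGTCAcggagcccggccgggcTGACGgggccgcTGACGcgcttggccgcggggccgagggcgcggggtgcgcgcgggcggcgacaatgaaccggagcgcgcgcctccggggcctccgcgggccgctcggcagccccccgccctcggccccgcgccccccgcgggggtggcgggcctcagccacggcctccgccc
Nr4a1: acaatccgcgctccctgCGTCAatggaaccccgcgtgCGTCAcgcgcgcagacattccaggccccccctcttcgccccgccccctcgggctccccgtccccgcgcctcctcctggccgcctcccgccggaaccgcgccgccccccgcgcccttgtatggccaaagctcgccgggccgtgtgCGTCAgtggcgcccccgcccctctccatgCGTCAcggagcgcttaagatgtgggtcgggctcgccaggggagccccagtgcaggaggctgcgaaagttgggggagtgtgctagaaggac
Fos: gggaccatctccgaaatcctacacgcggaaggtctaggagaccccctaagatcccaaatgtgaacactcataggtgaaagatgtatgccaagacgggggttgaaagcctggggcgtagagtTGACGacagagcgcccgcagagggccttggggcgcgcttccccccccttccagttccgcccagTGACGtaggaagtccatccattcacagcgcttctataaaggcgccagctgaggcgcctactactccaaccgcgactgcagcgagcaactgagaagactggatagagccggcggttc
Dusp1: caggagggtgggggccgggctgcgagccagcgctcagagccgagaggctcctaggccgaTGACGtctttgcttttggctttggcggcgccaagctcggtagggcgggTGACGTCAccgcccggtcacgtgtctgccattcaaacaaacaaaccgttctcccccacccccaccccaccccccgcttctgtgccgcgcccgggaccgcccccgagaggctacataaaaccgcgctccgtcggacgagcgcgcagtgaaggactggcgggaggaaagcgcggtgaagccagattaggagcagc

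Nr4a2 and Nr4a1 held 4 short sites each, Fos held 2, and Dusp1 held 3, of which a pair made up its full site. At least 1 short site was found in 20.8% of the 32851 promoters of that table, in 28.6% of the 112 promoters that belonged to genes called higher and in 33.3% of the 147 that belonged to genes called lower. The full site was found in 1.79% of all promoters, in 3.57% of those of genes called higher and in 3.4% of those of genes called lower. The full set of promoters also holds genes that were not tested here. A different short sequence, GCGTG, the core of a site of the aryl hydrocarbon receptor, was found in 32.4%, 50% and 50.3% of the same sets. The higher shares were therefore not particular to the CRE. A match is a run of letters and not a measured binding site.

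Genes of the drug targets did not pass without the mouse term. Of 22 tested genes for phosphodiesterases, adenylyl cyclases, protein kinase A and related proteins, 0 passed (edgeR), and their median log2 fold change was -0.01. Pde4a and Pde4d, which encode targets of Tanimilast, stood at 11.9 ± 1.06 and 12.1 ± 0.677 CPM (SD, n = 3) in FibVeh and at 13.3 ± 1.67 and 11.8 ± 1.56 CPM in FibCSETF. Pde4b, a phosphodiesterase gene that cyclic AMP is known to induce, stood at 6.73, 6.57 and 10.5 CPM in FibVeh and at 18.9, 10.1 and 21.6 CPM in FibCSETF, where mouse 2 overlapped the vehicle range. Its change missed the threshold and passed with mouse as a replicate block (1.09 ± 0.29, edgeR adjusted p = 0.0792; 1.08 ± 0.26, adjusted p = 0.0378 with the block).

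The early response list, genes that growth factors and stress switch on quickly, split evenly. Of 28 tested members, 3 rose (Fos, Dusp1 and Dusp6) and 3 fell (Egr1, Fosl1 and Dusp5), with a median of -0.01. Dusp6, a phosphatase that acts on ERK, rose from 160, 149 and 144 CPM to 214, 214 and 239 CPM (0.56 ± 0.07, edgeR adjusted p = 0.0174). Dusp5, another ERK phosphatase, fell from 157 ± 14.2 to 104 ± 15.1 CPM (SD, n = 3; -0.59 ± 0.12, edgeR adjusted p = 0.0471). Fosl1, which encodes an AP-1 subunit like Fos, fell from 148 ± 3.31 to 100.2 ± 6.99 CPM (-0.56 ± 0.08, edgeR adjusted p = 0.0222). Dusp5 and Fosl1 are named to complete these counts and lie outside the rule for named genes.

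**Figure D3:**
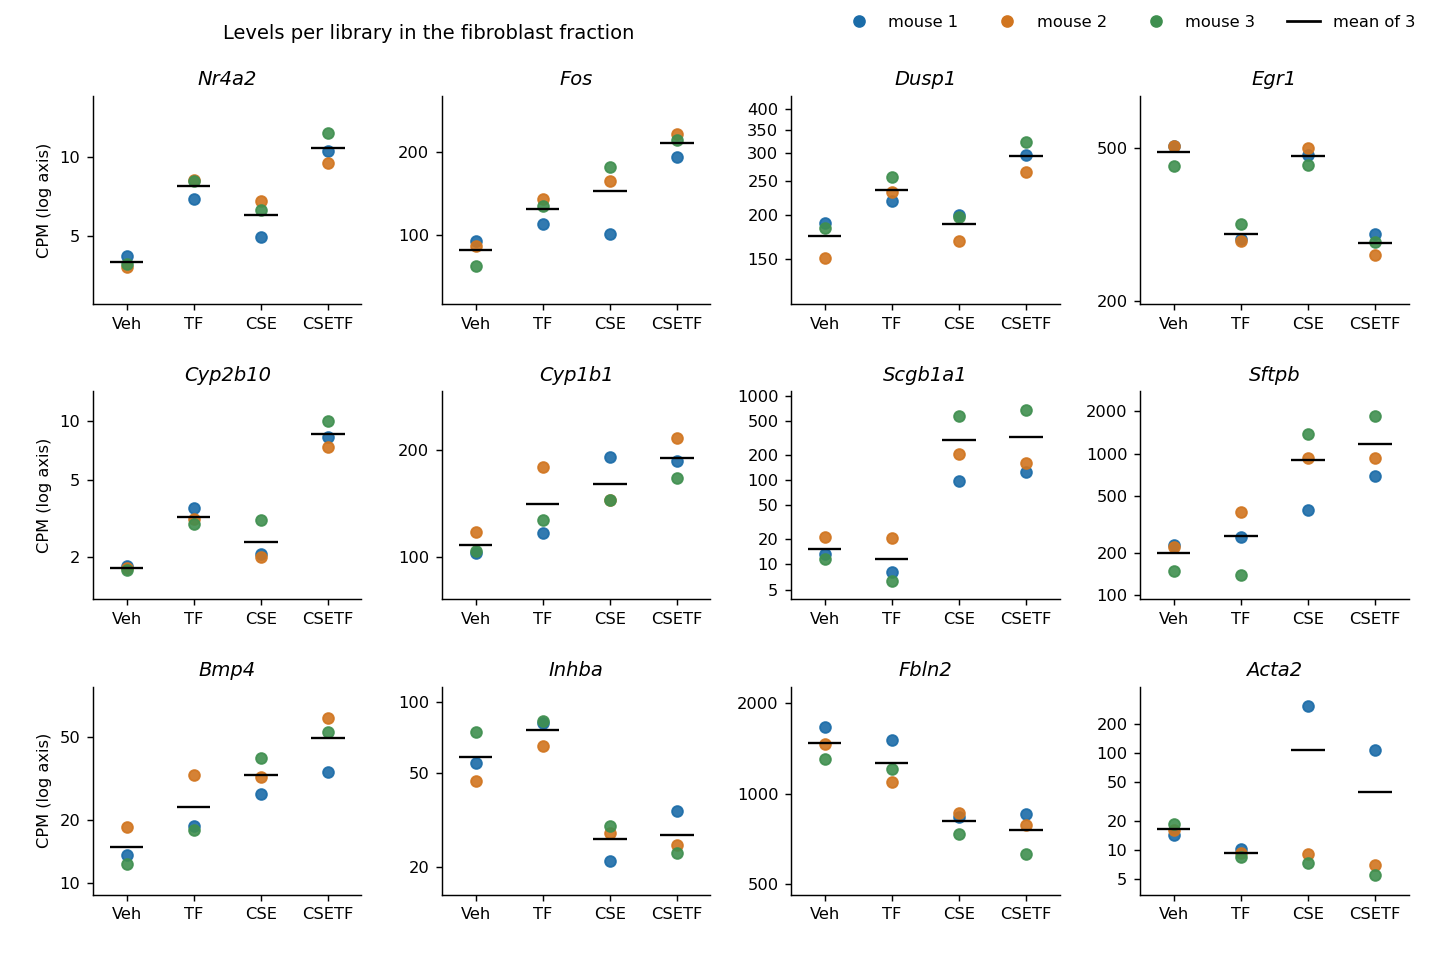
Levels of 12 genes in the 12 fibroblast-fraction libraries in CPM, on log axes with a range of their own per gene. Points are libraries coloured by mouse, bars are means of 3, and the groups are vehicle (Veh), drugs alone (TF), smoke extract alone (CSE) and smoke extract followed by drugs (CSETF). For Egr1 the TF and CSETF libraries lie below the Veh and CSE libraries, for Inhba and Fbln2 the CSE and CSETF libraries lie below the others, and for Acta2 the libraries of mouse 1 with smoke extract stand alone at 308 and 108 CPM.

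Growth factor genes of the transforming growth factor beta (TGF-beta) family moved in both directions. Of 19 tested TGF-beta and activin genes, 2 rose and 4 fell, with a median of -0.03. Inhba, the subunit that forms activin A, stood at 55.0, 46.2 and 74.6 CPM in FibVeh and at 34.6, 24.7 and 23.0 CPM in FibCSETF, without overlap (-1.09 ± 0.21, edgeR adjusted p = 0.0449). Smad7, an inhibitor of the pathway that TGF-beta signalling induces, fell from 113, 112 and 123 CPM to 83.3, 81.5 and 73.1 CPM (-0.55 ± 0.07, edgeR adjusted p = 0.0176). Fstl3, which traps activin, fell by 0.52 ± 0.11 (edgeR adjusted p = 0.0496), and Ltbp1, which tethers latent TGF-beta in the matrix, fell by 0.60 ± 0.10 (edgeR adjusted p = 0.034) on the log2 scale. Both are named outside the rule to complete the count.

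The risers of that list were a ligand and a receptor. Tgfb2 stood at 37.5, 46.9 and 35.6 CPM in FibVeh and at 63.7, 107 and 67.6 CPM in FibCSETF (0.99 ± 0.21, edgeR adjusted p = 0.0474). Tgfbr1, the type I receptor, stood at 55.5, 56.5 and 58.2 CPM in FibVeh and at 78.1, 116 and 106 CPM in FibCSETF (0.82 ± 0.17, edgeR adjusted p = 0.0471). Neither overlapped between the groups. Lrrc32, which displays latent TGF-beta on the cell surface, fell from 14.4 ± 2.83 to 6.23 ± 0.377 CPM (SD, n = 3; -1.21 ± 0.24, edgeR adjusted p = 0.0449).

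Of 19 tested factors by which fibroblasts support epithelium, 1 rose and 1 fell, with a median of -0.30. Bmp4, a bone morphogenetic protein of lung branching and repair, rose from 13.6, 18.6 and 12.4 CPM to 33.9, 61.8 and 52.6 CPM (1.73 ± 0.29, edgeR adjusted p = 0.0324). Fgf2, a basic fibroblast growth factor, fell from 12.4, 19.0 and 14.9 CPM to 7.62, 6.94 and 4.15 CPM (-1.31 ± 0.24, edgeR adjusted p = 0.0361). The treated and vehicle libraries were separate for both. Fgf7, a fibroblast factor that drives alveolar epithelial growth, missed the threshold without the mouse term (-0.46 ± 0.12, edgeR adjusted p = 0.08) and passed with the replicate block (-0.46 ± 0.12, adjusted p = 0.0449). The same held for the cytokine Lif (edgeR adjusted p = 0.133 without the block; -0.31 ± 0.08, adjusted p = 0.0449 with it). Fgf10, which maintains lung progenitors, did not pass either way (-0.37 ± 0.15, edgeR adjusted p = 0.175).

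The largest falls included genes of fibroblasts, muscle and the cell surface. Stra6, the receptor that takes up retinol, stood at 53.02, 41.5 and 63.6 CPM in FibVeh and at 16.5, 14.5 and 17.8 CPM in FibCSETF, the steepest fall of the named genes (-1.70 ± 0.24, edgeR adjusted p = 0.0222). Tnnt2, cardiac troponin T, fell from 153, 159 and 191 CPM to 71.2, 73.4 and 66.1 CPM (-1.25 ± 0.16, edgeR adjusted p = 0.0174). Npr3, the clearance receptor for natriuretic peptides, fell from 767, 881 and 813 CPM to 388, 394 and 373 CPM (-1.09 ± 0.19, edgeR adjusted p = 0.0343). None of these genes overlapped between the groups. Kcnn4, a calcium-activated potassium channel, fell by 1.14 ± 0.16 (edgeR adjusted p = 0.0214), and Lce1g, of the late cornified envelope family, fell by 1.26 ± 0.23 (edgeR adjusted p = 0.0351) on the log2 scale.

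Of 20 tested fibroblast matrix genes, 0 rose and 1 fell, with a median of -0.42. The pair medians were 0.05 in mouse 1, -0.64 in mouse 2 and -0.61 in mouse 3, so the list was lower in 2 of the 3 pairs. That gene was Fbln2, fibulin-2, which binds elastic fibres and basement membrane. It stood at 1666, 1461 and 1310 CPM in FibVeh and at 855, 785 and 630.0 CPM in FibCSETF (-0.97 ± 0.15, edgeR adjusted p = 0.0238), with a wide gap between the groups. Bgn, the proteoglycan biglycan, missed the threshold without the mouse term (-0.69 ± 0.16, edgeR adjusted p = 0.0619) and passed with the replicate block (-0.69 ± 0.17, adjusted p = 0.0351). In bulk RNA of this kind, fewer fibroblasts and less RNA per fibroblast cannot be told apart.

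Mouse 1 decided the values of the main collagens. Col1a1 stood at 568, 475 and 525 CPM in FibVeh and at 1023, 261 and 239 CPM in FibCSETF, so mouse 1 was high and mice 2 and 3 were low (-0.04 ± 0.71, edgeR adjusted p = 0.982). Without mouse 1 its change was -0.98 (edgeR adjusted p = 0.0297). Col3a1 followed the same order of mice (0.45 ± 0.80, edgeR adjusted p = 0.801; without mouse 1 -0.68, adjusted p = 0.0431). Acta2 stood at 14.1, 16.0 and 18.7 CPM in FibVeh and at 108, 6.91 and 5.46 CPM in FibCSETF, with a fitted change of 1.297 ± 1.37 (edgeR adjusted p = 0.64) that became -1.47 without mouse 1 (adjusted p = 0.0227). The direction of these 3 genes was therefore that of mouse 1 or that of mice 2 and 3.

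Of 10 tested fibroblast identity genes, 0 passed (edgeR), their median was -0.42, and it was negative in each mouse pair (-0.16, -0.52 and -0.58). Prrx1, a mesenchymal homeobox factor, missed the threshold without the mouse term (-0.40 ± 0.16, edgeR adjusted p = 0.192) and passed with the replicate block (-0.42 ± 0.10, adjusted p = 0.031). Des, desmin, the muscle intermediate filament, fell from 30.3 ± 4.29 to 19.1 ± 2.79 CPM (SD, n = 3; -0.67 ± 0.14, edgeR adjusted p = 0.0474) as the 1 called gene of 12 myofibroblast genes and of 7 pericyte and smooth muscle genes. The fitted medians of both lists were 0.32. The pair medians of mice 1, 2 and 3 were 0.90, -0.24 and -0.41 in the myofibroblast list and -0.19, -0.38 and -0.29 in the pericyte and smooth muscle list, so in the latter all 3 pairs had the opposite sign to the fitted median. Of 20 matrix proteases and their inhibitors, 1 fell. Mmp10, stromelysin-2, stood at 21.7, 27.1 and 30.4 CPM in FibVeh and at 13.7, 10.00 and 13.7 CPM in FibCSETF (-1.08 ± 0.19, edgeR adjusted p = 0.035). Mmp13, a collagenase, and Mmp9, a gelatinase, missed the threshold without the mouse term (edgeR adjusted p = 0.0559 and 0.0756) and were lower past it with the replicate block (adjusted p = 0.0348 and 0.0383). Of 20 cytokines and chemokines 1 fell, Csf1, the growth factor of macrophages (-0.42 ± 0.08, edgeR adjusted p = 0.0403).

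The smallest p of the comparison was that of 1 enzyme that metabolises foreign compounds. This was Cyp2b10, a cytochrome P450 that drugs induce in mouse liver through the receptor CAR. It stood at 1.80, 1.77 and 1.73 CPM in FibVeh and at 8.30, 7.34 and 10.00 CPM in FibCSETF. The vehicle libraries were nearly equal, and all treated libraries lay far above them (2.28 ± 0.21, edgeR adjusted p = 0.00481). Cyp1b1, a target of the aryl hydrocarbon receptor, rose from 102, 118 and 104 CPM to 186, 217 and 167 CPM (0.82 ± 0.17, edgeR adjusted p = 0.0471). It was the 1 called gene of 10 tested targets of that receptor, whose median was 0.14. Gstt1, a glutathione transferase, rose from 2.36, 3.17 and 2.18 CPM to 5.17, 7.03 and 10.3 CPM, without overlap (1.54 ± 0.31, edgeR adjusted p = 0.0471).

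The mouse term added more such enzymes, and some of those added fell. Of 9 tested Cyp2 genes, 1 rose without the mouse term (Cyp2b10), and with it 3 rose and 2 fell (Cyp2c55 and Cyp2d22). The median of that list was 0.01. Of 15 tested glutathione transferases, 1 rose without the mouse term and 7 with it as a replicate block, and the list's median was 0.77. Over all genes tested, 0.618% rose without the block, and 4.94% rose and 2.97% fell with it. Of 21 targets of NRF2, the factor that senses electrophiles, 0 passed without the block (edgeR) and 6 rose with it, with a median of 0.16. Gclc, the rate-limiting enzyme of glutathione synthesis, stood at 151, 175 and 121 CPM in FibVeh and at 224, 354 and 353 CPM in FibCSETF (1.06 ± 0.24, edgeR adjusted p = 0.0597; 1.03 ± 0.19, adjusted p = 0.0187 with the block). Hmox1, heme oxygenase 1, another NRF2 target, lay lower in FibCSETF in each mouse and did not pass (-0.33 ± 0.10, edgeR adjusted p = 0.0887).

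Genes of secretory and alveolar epithelium were among the largest rises. Scgb1a1, the secretory protein of club cells, stood at 13.2, 21.1 and 11.6 CPM in FibVeh and at 126, 160 and 692 CPM in FibCSETF (4.41 ± 0.87, edgeR adjusted p = 0.0462). Sftpb, surfactant protein B, stood at 226, 219 and 149 CPM in FibVeh and at 697, 943 and 1866 CPM in FibCSETF (2.56 ± 0.52, edgeR adjusted p = 0.0474). All treated libraries were above all vehicle libraries, and mouse 3 was the highest treated library for both. Of 11 club and secretory genes, 1 rose without the replicate block and 4 with it (median 1.48), of 12 alveolar type 2 genes 1 and 4 (median 1.62), and of 12 alveolar type 1 genes 0 and 5 (median 1.03, edgeR). In the type 1 list 1 gene, Rtkn2, fell with the block. Over all genes tested, 0.618% rose without the block and 4.94% with it. The pair medians of mice 1, 2 and 3 were 0.61, 1.07 and 2.10 in the club list. They were 0.44, 1.15 and 2.50 in the type 2 list and 0.34, 1.17 and 1.375 in the type 1 list. Mouse 1 was the lowest and mouse 3 the highest in each. Sftpc, the defining surfactant gene of alveolar type 2 cells, did not pass either way (2.00 ± 0.77, edgeR adjusted p = 0.172).

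General epithelial genes moved less. Of the 17 epithelial identity genes, 0 passed without the replicate block (edgeR) and 7 rose with it, with a median of 0.51. With the block 4.94% of all genes tested rose. Epcam changed by 0.23 ± 0.27 (edgeR adjusted p = 0.673) and the keratin Krt8 by 0.61 ± 0.24 (edgeR adjusted p = 0.183). Of 11 goblet and mucous genes, 4 rose with the block and 0 without it (edgeR), among them the mucin Muc5b, at 32.9, 34.7 and 13.6 CPM in FibVeh and 89.7, 106 and 100.1 CPM in FibCSETF (1.95 ± 0.43, adjusted p = 0.0358 with the block; 1.86 ± 0.42, edgeR adjusted p = 0.059 without it). The part that epithelial RNA had in the other called changes was looked at only through the covariate fit, in which Scgb1a1 changed by 2.60, Sftpb by 1.71, Cyp2b10 by 2.13, Nr4a2 by 1.29, Egr1 by -0.70, Stra6 by -1.68 and Tnnt2 by -1.26 with none called.

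The other large rises were in genes with varied roles. Pyy, the gut hormone peptide YY, stood at 0.744, 0.298 and 0.424 CPM in FibVeh and at 4.09, 4.43 and 8.91 CPM in FibCSETF (3.59 ± 0.51, edgeR adjusted p = 0.0214). Synpr, synaptoporin, a synaptic vesicle protein, rose by 3.25 ± 0.66 (edgeR adjusted p = 0.0471), and Ndnf, a secreted neurotrophic factor, by 2.48 ± 0.48 (edgeR adjusted p = 0.0449). Smpdl3b, a membrane enzyme of the sphingomyelinase family, rose by 2.42 ± 0.52 (edgeR adjusted p = 0.0496), and Sptssb, a small subunit of the first enzyme of sphingolipid synthesis, by 2.30 ± 0.48 (edgeR adjusted p = 0.0471). Under the replicate block the largest rises also took in Cd200, Bend7 and Qpct, and the largest falls Cenpm and Stab1, whose edgeR adjusted p without it lay between 0.0525 and 0.133.

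**Figure D4:**
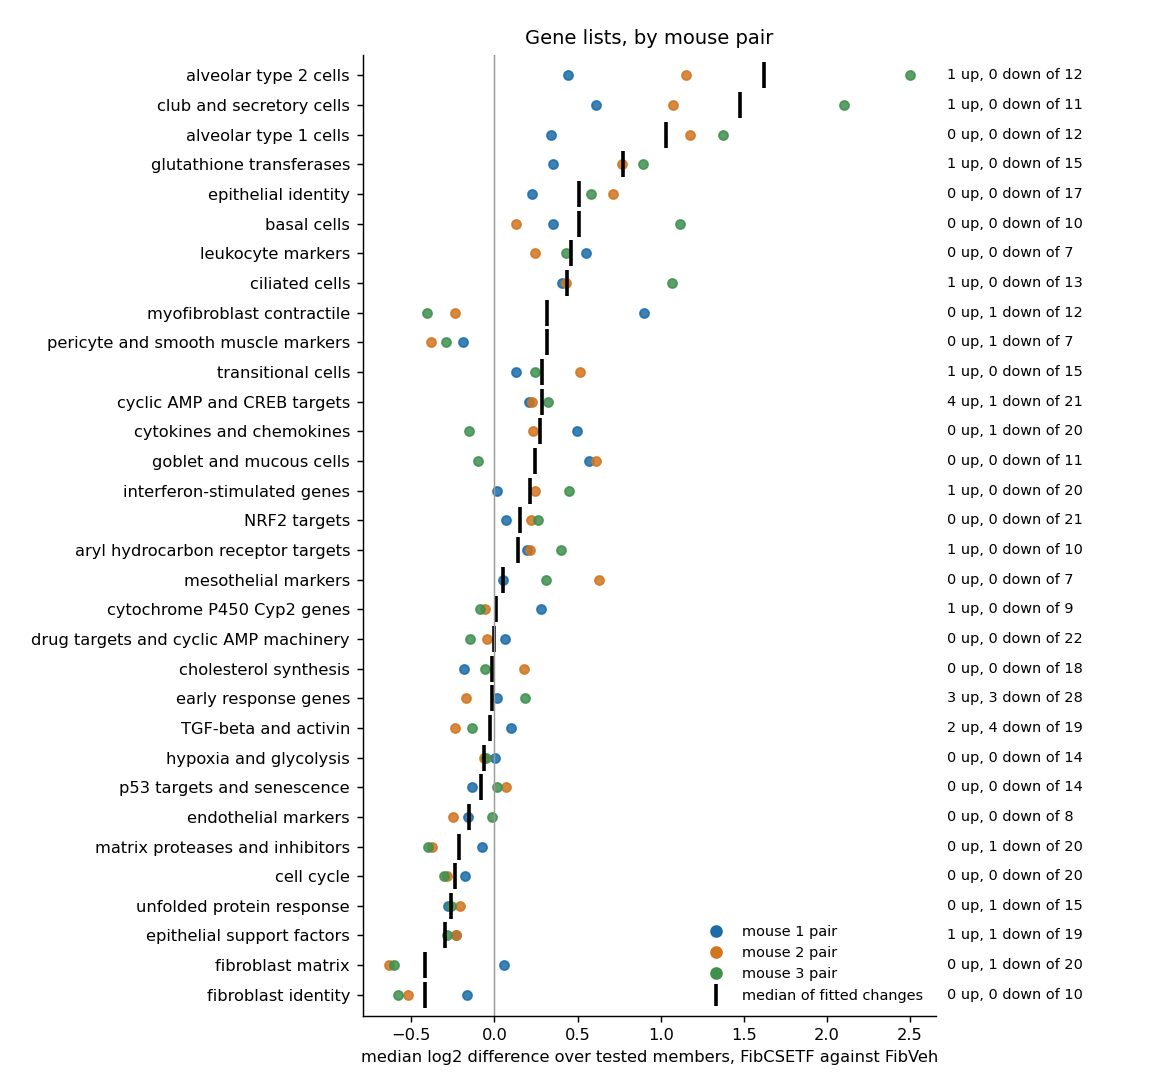
Median log2 difference of FibCSETF against FibVeh over the tested members of each gene list. Coloured points are the 3 mouse pairs, black bars are medians of the fitted changes, and the text at the right counts members called up and down of those tested. The alveolar type 2, club and alveolar type 1 lists have the highest medians (1.62, 1.48 and 1.03), the fibroblast lists the lowest (-0.42 each), and in the myofibroblast list the pair of mouse 1 is positive while those of mice 2 and 3 are negative.

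Stress, growth and interferon lists held few called genes. Of 15 unfolded protein response genes, 1 fell without and 5 with the replicate block (median -0.26). The 1 was Asns, asparagine synthetase, at 155, 126 and 131 CPM in FibVeh and 88.4, 80.8 and 78.2 CPM in FibCSETF, without overlap (-0.74 ± 0.11, edgeR adjusted p = 0.0221). Of 20 interferon-stimulated genes 1 rose, Ifih1, a sensor of double-stranded RNA (0.69 ± 0.14, edgeR adjusted p = 0.0474). Of 20 cell cycle genes, 14 p53 and senescence genes, 14 hypoxia and glycolysis genes and 18 cholesterol synthesis genes, 0 passed without the block (edgeR), with medians of -0.24, -0.08, -0.07 and -0.01. With the replicate block 2 cell cycle genes (Cenpa and Tyms) and 1 hypoxia and glycolysis gene (Slc2a1) fell, 1 p53 and senescence gene (Cdkn2a) rose, and 0 cholesterol synthesis genes passed. Over all genes tested, 4.94% rose and 2.97% fell with the block, so 1 called member of such a list says little about the list. Cdkn1a, the p53 target that halts the cell cycle, did not pass either way (-0.23 ± 0.07, edgeR adjusted p = 0.106).

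Setting the treated group beside the cultures that had 1 exposure gave splits that differed between genes. These contrasts come from the same fit and share libraries, so the values are given side by side and no overlap of their calls was drawn. In edgeR's test 19 genes (0.104%) differed between smoke extract alone and vehicle, 1 (0.00547%) between drugs alone and vehicle, 2 (0.0109%) between smoke extract followed by drugs and smoke extract alone, and 0 between smoke extract followed by drugs and drugs alone. Egr1 changed by -0.03 ± 0.08 with smoke extract alone (edgeR adjusted p = 0.907), by -0.71 ± 0.08 with drugs alone (adjusted p = 0.0371) and by -0.75 ± 0.08 from smoke extract alone to smoke extract followed by drugs (adjusted p = 0.0174). Cyp2b10 changed by 0.45 ± 0.21, by 0.87 ± 0.20 and by 1.83 ± 0.20 in the same order (edgeR adjusted p = 0.383, 0.738 and 0.0174), so its level after both exposures was above that after either alone in every library.

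Falls of another set were present with smoke extract alone. Tnnt2 changed by -1.36 ± 0.16 with smoke extract alone (edgeR adjusted p = 0.0251) and by -0.15 ± 0.16 with drugs alone (adjusted p = 0.91). Smad7 changed by -0.60 ± 0.07 and by -0.05 ± 0.07 (edgeR adjusted p = 0.0251 and 0.925). Kcnn4 changed by -1.13 ± 0.16 and by -0.11 ± 0.16 (edgeR adjusted p = 0.0379 and 0.928). From smoke extract alone to smoke extract followed by drugs these 3 genes changed by 0.10 ± 0.16, 0.05 ± 0.07 and -0.01 ± 0.16 (edgeR adjusted p = 0.838, 0.828 and 0.987). Scgb1a1 changed by 4.27 ± 0.86 with smoke extract alone and by -0.41 ± 0.79 with drugs alone, neither called (edgeR adjusted p = 0.0958 and 0.945), and Nr4a2 by 0.59 ± 0.16 and 0.96 ± 0.16 (adjusted p = 0.153 and 0.506).

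The same contrast in the epithelial fraction called 3 of 18038 genes (0.0166%) in edgeR's test, and all 3 were also called in the fibroblast fraction with the same sign. They were Pyy (2.71 ± 0.27 in the epithelial fraction, edgeR adjusted p = 0.0143), Tnnt2 (-1.09 ± 0.14, adjusted p = 0.0429) and Lgr6, a receptor for R-spondins (-0.88 ± 0.11, adjusted p = 0.0429; -0.85 ± 0.12 in the fibroblast fraction, adjusted p = 0.0211), the last named outside the rule. With mouse as a replicate block 6 genes were called there (0.0333%). Of the 267 called genes of the fibroblast fraction that were also tested in the epithelial fraction, 250 (93.6%) had the same sign in it, against 61.5% of all genes. The called genes had been picked for their change (median absolute log2 fold change 0.64, against 0.21 for all genes), which by itself favours a higher share. Both fractions also came from the same mice, so the shared signs are not independent. The test of the difference between the fractions called 0 of 19142 genes in edgeR, with a smallest adjusted p of 0.689 and 1327 genes at an unadjusted p under 0.05. It also called 0 with the replicate block and with DESeq2.

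The called genes were also placed by their level in either fraction, measured in the 12 libraries with smoke extract alone or drugs alone, which took no part in the contrast itself. Of 111 genes that rose, 95 (85.6%) were higher in the epithelial than in the fibroblast fraction, and of 156 that fell, 6 (3.85%) were, against 50.2% of 17115 genes in all. Stra6, Npr3 and Fgf2 were lower in the epithelial fraction by 1.96, 2.30 and 2.53 log2 units, and Egr1 by 1.18. Scgb1a1 and Synpr, among the largest rises, were close to equal (-0.17 and -0.13), and Nr4a1 rose while it was slightly lower in the epithelial fraction (-0.23). The libraries with smoke extract alone share an exposure with FibCSETF, so these ratios are not those of unexposed cultures. The fitted level of Scgb1a1 in the fibroblast fraction was already higher with smoke extract alone, though not called. Its ratio therefore does not show where the gene is expressed without exposure. How far these changes came from the share of epithelial RNA was not tested, as the covariate fit above cannot separate that share from the treatment.

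**Figure D5:**
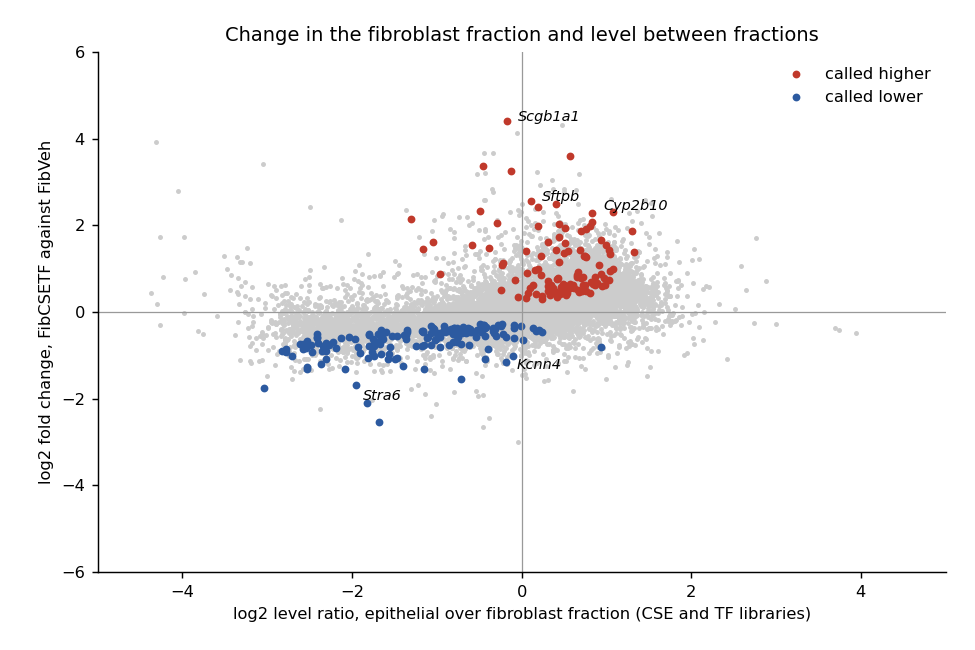
Log2 fold change of FibCSETF against FibVeh (y axis) against the log2 ratio of a gene's level in the epithelial over the fibroblast fraction in the libraries with smoke extract alone or drugs alone (x axis). Red points rose and blue points fell in the fibroblast fraction, and grey points were not called. Most red points (85.6%) lie to the right of 0 and all but 3.85% of blue points to the left.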

How the data were processed

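Per the labels' protocols, polyadenylated RNA was sequenced, and the reference was called GRCh38.p14 although named as mouse, so no coordinate of the deposited files is printed. Trimmomatic 0.30 for trimming and DESeq2 are named in the submitters' processing notes. The aligner, counter and use of strand are not given, so overlapping, antisense and near-identical genes can share reads. The deposited values were raw whole-number counts per gene for 49280 features, 5941 of them unnamed new loci (0.574 to 0.994% of counts). Mitochondrial genes took 4.81 to 6.23%.

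The test was edgeR's (4.0.16, in R 4.3.3) robust quasi-likelihood F test with TMM scaling, low counts filtered by group, 4 group means over 12 libraries and Benjamini-Hochberg adjustment over all genes. Genes with an adjusted p under 0.05 are called. Distances used log2 CPM with a prior count of 2. The procedure was tested on simulated data, drawn without a mouse effect or outlying libraries. That test therefore cannot say how firm the calls in these libraries are. The number of replicate pairs with identical values was 0. The labels give the mouse as batch, and the same mouse number was taken as the same animal. Deviations of the same mouse from the group means correlated at 0.11, 0.232 and 0.0831 over genes in mice 1, 2 and 3, and the replicate block called 1446 genes. Alternatives were DESeq2 1.42.0 and its size factors, no filter, left-out libraries and mice, the 6 libraries alone, the block and an epithelial covariate.

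Named genes were the 8 largest rises and 8 largest falls called, without and with the block, with at least 5 CPM in the higher group and the same direction in all 3 pairs, up to 3 called members of each of 32 lists, and a fixed set of 38. Of 490 list genes 489 were found, some by older symbols in RefSeq's GRCm38.p6 table. The members and lists were chosen with earlier results of these data known. P-values measure the spread between cultures of 1 fibroblast line with epithelium of 3 mice, which may be technical. The result for 1 gene is not reported here.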

Additional observations from a re-analysis of the deposited data

How the results depend on the processing

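All 269 called genes (113 higher, 156 lower) kept their direction in each of the 21 alternatives, while their number did not hold. The groups did not overlap for any of the 269, and all had the same direction in the 3 mouse pairs. A left-out library or the block could therefore hardly turn a direction, and the kept directions are no measure of how firm the calls were. It was 261 with DESeq2's size factors, 238 without a filter on low counts (86 higher, 152 lower), 364 with the 6 libraries alone (122 higher, 242 lower), 1446 with mouse as a replicate block (903 higher, 543 lower), 1447 with the 6 libraries alone and the block, and 1542 with DESeq2's Wald test (817 higher, 725 lower). It was 0 in edgeR with the epithelial covariate, without and with the block (2146 and 1336 at an unadjusted p under 0.05), and 2780 without the smoke extract libraries of mouse 1, a setting added after the data were seen. Leaving out a mouse or a library gave 0 to 1069 called genes, and with the block 1 to 2144. Fits that left out mouse 2 or mouse 3 gave 1 and 0 (edgeR; 2321 and 1259 at an unadjusted p under 0.05). The cause was not tested. Cyp2b10 and Egr1 were called in 14 of the 21 alternatives and Nr4a2 in 11. The difference between the fractions called 0 genes in 6 of the 7 alternatives run for it and 1 gene without mouse 3 (range 0 to 1).

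Directions that turned belonged to genes that were not called. With the covariate, Pde4d changed by 0.091, Epcam by -0.33 and Col1a1 by 0.83, and with covariate and replicate block Pde4d by 0.124, Epcam by -0.31, Krt8 by -0.0855 and Col1a1 by 0.0908. With the replicate block Col3a1 changed by -0.0797 and Acta2 by -0.37, and with the 6 libraries alone and the block by -0.0131 and -0.12. Without the smoke extract libraries of mouse 1 they changed by -0.76 and -1.40 (edgeR adjusted p = 0.0257 and 0.00644). Over the left-out libraries and mice, Pde4d ranged from -0.15 to 0.0556, Col1a1 from -1.06 to 0.30, Col3a1 from -0.75 to 0.84, Acta2 from -1.472 to 1.93 and Shmt2 from -0.18 to 0.0332. With the block and a mouse left out, Pde4d ranged from -0.15 to 0.0444, Col3a1 from -0.683 to 0.34, Acta2 from -1.483 to 0.72 and Shmt2 from -0.18 to 0.0335.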

Other observations

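Genes of amino acid and one-carbon synthesis lay lower in FibCSETF. They were chosen after their values were seen and belong to no list, so they carry no test as a group. Besides Asns, the called genes were Psph, the last enzyme of serine synthesis (53.2 ± 4.51 CPM in FibVeh and 32.99 ± 2.89 in FibCSETF, SD, n = 3; log2 fold change -0.69 ± 0.12, edgeR adjusted p = 0.035), and Mthfd2, a mitochondrial folate enzyme (-0.58 ± 0.10, edgeR adjusted p = 0.035). Aldh18a1 and Pycr1, both of proline synthesis, fell by 0.57 ± 0.11 and 0.53 ± 0.11 (edgeR adjusted p = 0.0462 and 0.0471). Bcat1, a branched-chain aminotransferase, fell by 0.75 ± 0.13 (edgeR adjusted p = 0.0295), and Gars, the glycyl-tRNA synthetase, by 0.42 ± 0.08 (edgeR adjusted p = 0.0385). All treated libraries were below all vehicle libraries for each of these called genes, as the groups did not overlap for any of the 269 called genes. Phgdh and Psat1, earlier enzymes of serine synthesis, and Shmt2, which passes its carbon to folate, did not pass (-0.59 ± 0.13, -0.40 ± 0.16 and -0.09 ± 0.09; edgeR adjusted p = 0.0559, 0.19 and 0.646). In the epithelial fraction the same contrast gave -0.00 for Asns, -0.11 for Psph, -0.03 for Mthfd2 and -0.01 for Gars, and the difference between the fractions was called for none of them.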
